A study of Homo sapiens with 24 samples.

Results

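The comparison sets erlotinib-resistant FaDu cells, from a squamous cell carcinoma of the pharynx, against erlotinib-resistant SQ20B cells, from one of the larynx. The members are the 6 arrays of these groups, 3 each, of 24 arrays in a series on head and neck carcinoma lines. They were read over the 17424 of 47231 probes that had 1 gene symbol and a detection p-value under 0.05 on at least 3 of the 12 arrays of both lines, and these probes stand for 12934 genes. Sensitive (parental) FaDu and sensitive SQ20B cells, 3 arrays each, show which differences the lines already had. The resistant FaDu cells were developed from the parental FaDu cells. All 4 groups received 0.01% DMSO for 48 h before RNA was taken, and both resistant groups had been kept in medium with erlotinib. The sources used here do not say whether the drug stayed on during the DMSO period. No separate derivations of a resistant line are named in the labels, which do not say whether replicates came from separate cultures, so the p-values measure the spread between these arrays, which may be technical. The question put to the data is which genes separate the resistant states.

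Erlotinib blocks the kinase activity of EGFR, the receptor of epidermal growth factor, which squamous carcinoma cells often carry in abundance and use for growth through the RAS and ERK pathway. Cells that grow in the drug are known to use other receptors, inflammatory signalling, changes of cell state or altered drug handling. Interferon-stimulated genes, which encode antiviral proteins, are switched on through JAK kinases and STAT and IRF factors, and some tumour cells keep them on without added interferon.

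Detected probes numbered 20063 to 20486 on the resistant FaDu arrays and 20972 to 21271 on the resistant SQ20B arrays. Across the tested probes, which are not independent replicates, arrays of 1 group correlated at 0.992 to 0.995, resistant FaDu and resistant SQ20B arrays at 0.899 to 0.901, and sensitive FaDu and sensitive SQ20B arrays at 0.913 to 0.916. Of 15 squamous epithelial markers with a probe, 15 were detected on all 3 resistant FaDu arrays and 13 on all 3 resistant SQ20B arrays. The other 2 were detected on no resistant SQ20B array, among them PKP1, a desmosomal plaque protein described with the desmosomes. Unless stated otherwise, levels are log2 normalised intensities at each gene's brightest probe, on which a difference of 1 is a 2-fold difference. All differences are FaDu minus SQ20B ± SE from limma. The number of arrays limits the precision. A gene was called when limma's p, adjusted by Benjamini-Hochberg over all probes, was under 0.05.

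The resistant states differed in more genes than not. Of 12934 genes, 8278 were called (64.0%), 4243 higher in resistant FaDu (32.8%) and 4035 lower (31.2%), and of 17424 probes 10831 (62.2%). With median scaling in place of quantile normalisation the larger direction turned, with 3389 higher and 4246 lower. With at least a 2-fold difference, 2774 were called (21.4%), 1296 higher (10.0%) and 1478 lower (11.4%), and this total was 1416 without background correction and 1794 with an offset of 50. At least a 4-fold difference was met by 258 genes higher and 418 lower in resistant FaDu, and at least a 16-fold difference by 28 higher and 49 lower. The 3 FaDu and 3 SQ20B resistant arrays did not overlap for 8807 genes (68.1%). Of the 12934 genes, 275 were detected on all 3 resistant FaDu arrays and no resistant SQ20B array, and 390 the other way round. For 3534 genes more than 1 probe was tested, and for 107 of them probes were called in opposite directions. With a background this high, a called gene alone says little, and sizes carry the description. Counts of called members in the gene lists below have to be read beside these shares.

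Many of the differences were also called between the parental cells. Sensitive FaDu and sensitive SQ20B, on arrays of their own, differed in 7735 genes (59.8%), 4069 higher in FaDu (31.5%) and 3666 lower (28.3%). A total of 5503 genes were called in 1 direction in both states, which is 66.5% of the resistant calls and 71.1% of the sensitive calls. Among the 2774 genes with at least a 2-fold resistant difference, 2344 (84.5%) were called alike in the sensitive cells, 329 (11.9%) were not called there and 101 (3.64%) were called the opposite way. The difference between the lines changed with the state in 4624 genes (35.8%), a test of the resistant difference minus the sensitive difference in the same fit. Of these, 2306 changed upwards (17.8%) and 2318 downwards (17.9%), and with median scaling the split was 1282 upwards and 2528 downwards. Of 2217 genes called in the resistant cells and not in the sensitive cells, 1265 passed the test of that change.

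**Figure D1:**
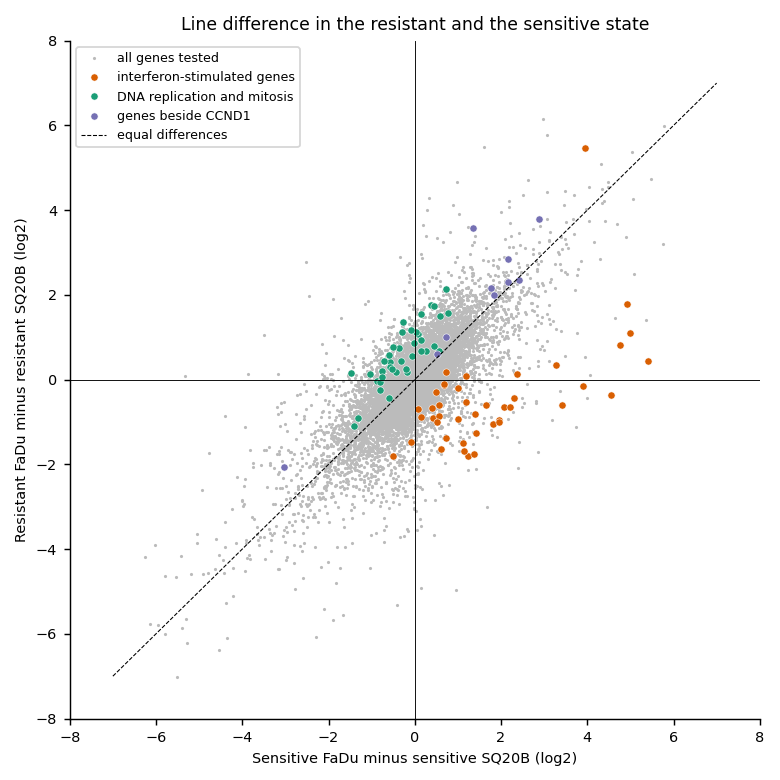
Difference between the lines for each of the 12934 tested genes, with resistant FaDu minus resistant SQ20B on the vertical axis and sensitive FaDu minus sensitive SQ20B on the horizontal axis (both log2). Of the 10 genes beside CCND1, 9 lie above 0 and 1 below 0 on both axes. The 42 interferon-stimulated genes lie mostly to the right of and below that line, and the 39 replication and mitosis genes mostly above it.

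The 15 genes with the largest excess in resistant FaDu were a mixed set with CXCL8 first. CXCL8, the neutrophil-attracting chemokine interleukin-8, stood at 11.43, 11.44 and 11.46 on the resistant FaDu arrays, against 5.28, 5.36 and 5.23 on the resistant SQ20B arrays. The groups lay far apart, with a difference of 6.15 ± 0.10 (adjusted p = 1.76e-13, limma), and a dimmer CXCL8 probe gave 4.34. The related chemokine CXCL1 stood at 9.16, 9.45 and 9.66 in resistant FaDu, against 5.20, 4.54 and 4.51 in resistant SQ20B. No arrays overlapped, which the choice of these 15 genes required. Limma's difference was 4.68 ± 0.18 (adjusted p = 2.29e-10), with CXCL1 detected on only 1 of the 3 resistant SQ20B arrays. GPX2, a glutathione peroxidase, stood at 10.45, 10.49 and 10.42 in resistant FaDu and at 4.32, 4.61 and 4.44 in resistant SQ20B, where it was not detected on any array. For a gene detected on no array of a group the fold is a bound, set against the lowest detected signal of those arrays or the probe's own value if that was higher. GPX2 was thus at least 51.7-fold higher in resistant FaDu (adjusted p = 1.16e-12, limma). AKR1C3, an aldo-keto reductase of steroid and prostaglandin metabolism, stood at 10.34, 10.15 and 10.52 in resistant FaDu, against 4.60, 4.48 and 4.60 in resistant SQ20B, where no array detected it. It was at least 47.5-fold higher (adjusted p = 3.65e-13, limma), and its close relatives may share its probe.

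The other genes with a large excess in resistant FaDu had varied roles. CALB2, the calcium-binding protein calretinin, was at least 34.3-fold higher at its brightest probe (adjusted p = 1.76e-13, limma), while its dimmer probe gave a difference of 0.28 that was not called. HENMT1, which methylates the ends of piRNAs, was at least 37.1-fold higher (adjusted p = 7.09e-13, limma). FAT1, an atypical cadherin, stood at 10.10, 9.79 and 10.00 in resistant FaDu and at 4.92, 4.87 and 4.83 in resistant SQ20B, a difference of 5.09 ± 0.11 (adjusted p = 1.5e-12, limma). MGMT, the enzyme that removes alkyl groups from guanine in DNA, stood at 9.10, 8.69 and 9.04 in resistant FaDu and was not detected in resistant SQ20B, at 4.34, 4.40 and 4.45. It was at least 18.1-fold higher (adjusted p = 2.48e-12, limma). In the sensitive cells, where SQ20B did not detect them, MGMT was at least 15.5-fold, HENMT1 at least 24.3-fold, FAT1 at least 16.5-fold and AKR1C3 at least 5.6-fold higher in FaDu, and the sensitive difference was 5.79 for GPX2 and 1.61 for CALB2. Some genes given with a difference were detected on part of the arrays of the dimmer group, so that their differences are partly set by the background. On 1 of the 3 resistant SQ20B arrays these were ABCA12, CXCL1, EPSTI1, GJB2, HOXD11, IRAK3, S100P and SPTSSB, and on 2 BMP7. On 1 of the 3 resistant FaDu arrays they were ALDH7A1, EPHA4, HLA-DOB, MMP28, MYEOV, TGFBR1 and THBD, and on 2 MAGEA6 and SERPINB7.

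**Figure D2:**
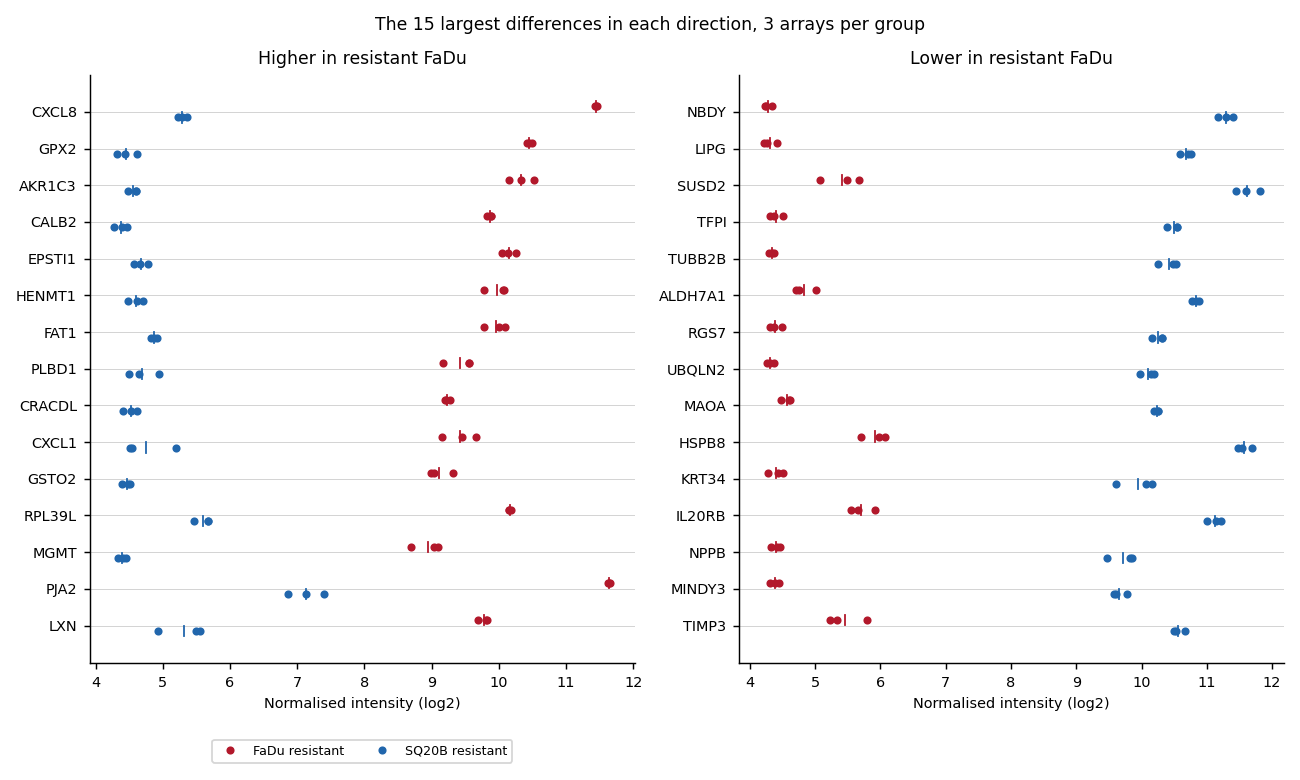
Log2 normalised intensity on each array for the 15 genes with the largest difference in each direction, among called genes whose groups do not overlap. Each point is 1 array, red for resistant FaDu and blue for resistant SQ20B, and the short bar is the mean of 3 arrays. In both panels 1 group sits near the detection limit for most genes, and NBDY, in the right panel, has the widest gap.

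The genes with the largest deficit in resistant FaDu were mostly at the detection limit there and bright in resistant SQ20B. NBDY, a small protein that binds the mRNA decapping machinery, stood at 4.23, 4.25 and 4.34 in resistant FaDu, against 11.29, 11.40 and 11.18 in resistant SQ20B. It was detected on none of the FaDu arrays and was at least 88.9-fold lower there (adjusted p = 8.76e-14, limma). LIPG, endothelial lipase, stood at 4.21, 4.42 and 4.27 in resistant FaDu, against 10.76, 10.71 and 10.58 in resistant SQ20B, and was at least 58.5-fold lower (adjusted p = 8.76e-14, limma). In the sensitive cells LIPG was already at least 15.9-fold lower in FaDu, and its change was called (adjusted p = 4.28e-07, limma). TFPI, the inhibitor of the tissue factor pathway of coagulation, stood at 4.37, 4.31 and 4.50 in resistant FaDu, against 10.55, 10.55 and 10.39 in resistant SQ20B. It too was undetected in FaDu and at least 51.3-fold lower (adjusted p = 8.89e-14, limma). TUBB2B, a beta-tubulin of a closely alike family, was at least 48.6-fold lower, RGS7, a regulator of G protein signalling, at least 43.5-fold, and UBQLN2, a ubiquilin that carries proteins to the proteasome, at least 39.1-fold. SUSD2, a membrane protein with a sushi domain, stood at 5.67, 5.08 and 5.49 in resistant FaDu, against 11.81, 11.45 and 11.60 in resistant SQ20B, a difference of -6.21 ± 0.16 (adjusted p = 6.91e-12, limma).

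For some of these genes the gap was narrower in the sensitive cells. MAOA, which oxidises monoamines, stood at 4.61, 4.48 and 4.59 in resistant FaDu, against 10.25, 10.25 and 10.20 in resistant SQ20B, and at 4.34, 4.41 and 4.46 in sensitive FaDu, against 6.21, 6.35 and 6.37 in sensitive SQ20B. It was at least 42.8-fold lower in resistant FaDu, and the change of the difference was -3.77 (adjusted p = 3.53e-10, limma). NPPB, which encodes a natriuretic peptide, stood at 4.42, 4.33 and 4.46 in resistant FaDu, against 9.48, 9.82 and 9.86 in resistant SQ20B, while in the sensitive cells it was detected on no FaDu array and 1 SQ20B array. It was at least 30-fold lower in resistant FaDu (adjusted p = 1.47e-11, limma). KRT34, a hair keratin, was at least 35.1-fold lower in resistant FaDu and at least 2.25-fold lower in sensitive FaDu. IL20RB, a receptor subunit for cytokines of the IL-20 family, differed by -5.42 ± 0.10 in resistant cells and by -2.11 in sensitive cells. The change of the difference was -4.91 for NPPB, -3.88 for KRT34 and -3.30 for IL20RB, with adjusted p values of 6.58e-09, 4.4e-08 and 7.08e-09 (limma). A change for a gene with an undetected group is limma's value over the measured intensities and gives no fold, which holds here for BDNF, BPIFB1, GABRP, IFI44L, KRT34, LUM, MAOA, NPPB, NRCAM, RARRES1, SIRPA, SPTSSB, UBD and VTN. HSPB8, a small heat shock protein, and ALDH7A1, an aldehyde dehydrogenase, differed by -5.66 ± 0.12 and -6.01 ± 0.11 in the resistant cells. They were undetected in sensitive FaDu, and at least 28.2-fold and 48.6-fold lower there.

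EGFR itself, the target of erlotinib, was lower in resistant FaDu. It stood at 10.47, 10.41 and 10.43 on the resistant FaDu arrays, against 13.38, 13.35 and 13.36 on the resistant SQ20B arrays. The difference of -2.93 ± 0.08 (adjusted p = 1.03e-11, limma) was matched by -2.92 in the sensitive cells, and the change of the difference was not called (adjusted p = 0.985). A second bright EGFR probe gave -2.90, and 2 dim probes gave 0.14 and -0.48. Of 13 tested genes of the EGFR family and its ligands 4 were higher and 5 lower, with a median of -0.22 beside 0.02 over all genes tested. ERBB2 and ERBB3, partner receptors of EGFR, differed little, by 0.23 ± 0.09 (adjusted p = 0.0416) and 0.32 ± 0.12 (adjusted p = 0.0312, limma). Both calls were lost under several alternatives, with adjusted p values of up to 0.316 for ERBB2 and 0.6 for ERBB3. HBEGF, an EGFR ligand, stood at 6.57, 6.40 and 6.26 in resistant FaDu, against 9.21, 9.25 and 9.27 in resistant SQ20B, while in the sensitive cells it was the higher one in FaDu by 0.47. EREG, another ligand, was higher in resistant FaDu by 1.05 ± 0.14, and LRIG1, which limits EGFR, by 0.75 ± 0.10.

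Receptors outside the EGFR family were divided. Of 28 tested receptor tyrosine kinases and ligands 10 were higher and 14 lower in resistant FaDu, with a median of -0.26 that became 0.02 without the detection filter. FGFR3, a fibroblast growth factor receptor, stood at 11.40, 11.51 and 11.63 in resistant FaDu, against 7.60, 7.23 and 7.35 in resistant SQ20B. The groups did not overlap, and the difference was 4.12 ± 0.11 (adjusted p = 6.64e-12, limma), beside 0.88 in the sensitive cells and 0.14 at a dim FGFR3 probe. FGFBP1, which releases growth factors from the matrix, was higher by 2.42 ± 0.12. GAS6, the ligand of AXL, stood at 6.75, 6.63 and 6.52 in resistant FaDu, against 10.50, 10.43 and 10.54 in resistant SQ20B, a difference of -3.85 ± 0.08. The sensitive difference of GAS6 was -4.14, and its change was not called (adjusted p = 0.0773, limma).

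Transcripts that report ERK activity were mostly higher in resistant FaDu. Of 22 tested, 15 were higher and 3 lower, with a median of 0.68, beside 10 higher, 7 lower and a median of 0.26 in the sensitive cells. The change of the difference was called upwards in 8 and downwards in 4 of these genes, with a median of -0.05. DUSP6, an ERK phosphatase that ERK induces, stood at 8.87, 8.37 and 8.33 in resistant FaDu, against 6.41, 6.46 and 6.43 in resistant SQ20B, a difference of 2.09 ± 0.15 (adjusted p = 5.87e-08, limma). In the sensitive cells the difference of -0.25 was not called (adjusted p = 0.171). SPRED1, an inhibitor of RAS signalling, was higher by 1.59 ± 0.11, and PHLDA1 was lower, with -2.98 ± 0.09.

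SMAD4, the shared mediator of TGF-beta and BMP signals, separated the lines in both states. It stood at 4.25, 4.63 and 4.26 in resistant FaDu, detected on no array, against 9.07, 9.02 and 8.76 in resistant SQ20B. It was at least 17.6-fold lower in resistant FaDu (adjusted p = 5.9e-12, limma), and at least 15.3-fold lower in sensitive FaDu. Among 32 tested YAP and TGF-beta response genes 10 were higher and 18 lower in resistant FaDu, with a median of -0.62, beside -0.67 in the sensitive cells. ANKRD1, a YAP target, stood at 4.44, 4.66 and 4.79 in resistant FaDu, against 9.0, 9.22 and 9.21 in resistant SQ20B, and was at least 20.1-fold lower. It was at least 11.5-fold lower in sensitive FaDu, and its change was not called (adjusted p = 0.113, limma). ID1, a BMP target, was higher by 2.67 ± 0.08, and BMP7, a BMP ligand, by 2.95 ± 0.14. TGFBR1, a TGF-beta receptor kinase, was dim in both, with -0.64 ± 0.22 (adjusted p = 0.0249, limma). That call was lost when single resistant arrays were left out, with adjusted p values of 0.101 without FaDu resistant replicate 2, 0.0534 without SQ20B resistant replicate 2 and 0.0865 without SQ20B resistant replicate 3.

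The CDK inhibitors CDKN1A, CDKN2B and CDKN2A were lower in resistant FaDu, and most replication genes were higher. CDKN1A, the CDK inhibitor p21, stood at 8.94, 9.06 and 9.09 in resistant FaDu, against 11.25, 11.42 and 11.26 in resistant SQ20B, a difference of -2.28 ± 0.09 (adjusted p = 3.33e-10, limma). In the sensitive cells the lines did not differ by the test, at -0.01 (adjusted p = 0.939). CDKN2B, an inhibitor of CDK4 and CDK6, stood at 8.24, 8.44 and 8.40 in resistant FaDu, against 11.12, 11.18 and 10.83 in resistant SQ20B, and its neighbour CDKN2A differed by -0.38 ± 0.08. CCND1, the cyclin that drives CDK4 and CDK6, was higher by 1.02 ± 0.08. Of 27 tested G1 regulators and p53 targets 7 were higher and 13 lower, and RRM2B, a p53-induced ribonucleotide reductase subunit, was among the higher ones with 1.78 ± 0.12.

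Of 39 tested DNA replication and mitosis genes 27 were higher and 4 lower in resistant FaDu, with a median of 0.58. Between the sensitive cells 7 were higher and 21 lower in FaDu, with a median of -0.30, and the change of the difference was called upwards in 35 and downwards in 0 of the 39. BIRC5, survivin, stood at 11.12, 11.03 and 10.94 in resistant FaDu, against 8.89, 8.91 and 8.87 in resistant SQ20B, a difference of 2.14 ± 0.08 beside 0.73 in the sensitive cells. MCM6, a subunit of the replicative helicase, stood at 11.75, 11.76 and 11.65 in resistant FaDu, against 9.91, 10.00 and 9.94 in resistant SQ20B, a difference of 1.77 ± 0.08. The members lower in resistant FaDu included CDC25B, a phosphatase that activates CDKs, at -1.10 ± 0.09, and CENPA, the centromeric histone, at -0.91 ± 0.08.

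Among the gene lists described, the resistant and the sensitive median lay farthest apart for interferon-stimulated genes. Of 42 tested members 6 were higher and 29 lower in resistant FaDu, with a median of -0.64, whereas 38 were higher and 1 lower in sensitive FaDu, with a median of 1.22, and the change of the difference was called downwards in 41 and upwards in 1 of them. IFI44L stood at 10.85, 11.08 and 10.93 in resistant FaDu, against 11.15, 11.05 and 11.10 in resistant SQ20B, and at 8.19, 8.29 and 8.20 in sensitive FaDu, against 4.37, 4.33 and 4.26 in sensitive SQ20B. The resistant arrays of both lines lay close together, the sensitive FaDu arrays lay lower and the sensitive SQ20B arrays lowest. The resistant difference of -0.15 ± 0.08 was not called (adjusted p = 0.151), IFI44L was at least 9.97-fold higher in sensitive FaDu, and the change of -4.05 was called (adjusted p = 3.1e-10, limma). BST2, tetherin, which holds budding virus at the cell surface, stood at 10.24, 10.33 and 10.25 in resistant FaDu, against 10.58, 10.61 and 10.70 in resistant SQ20B. In the sensitive cells it stood at 9.99, 10.01 and 10.10 in FaDu, against 5.66, 5.31 and 5.50 in SQ20B, so that sensitive SQ20B alone was low, and the change of the difference was -4.90 (adjusted p = 2.71e-10, limma).

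Individual interferon-stimulated genes still separated the resistant states. LAMP3, a lysosomal membrane protein, stood at 9.95, 9.99 and 9.71 in resistant FaDu, against 11.70, 11.64 and 11.73 in resistant SQ20B, a difference of -1.81 ± 0.16 (adjusted p = 6.66e-07, limma). IFITM1, a membrane protein that blocks virus entry and has near-identical relatives, stood at 10.53, 10.23 and 10.47 in resistant FaDu, against 12.21, 12.20 and 12.23 in resistant SQ20B, a difference of -1.80 ± 0.09. EPSTI1 went the other way and stood at 10.25, 10.05 and 10.13 in resistant FaDu, against 4.66, 4.78 and 4.57 in resistant SQ20B. It was detected on 1 of the 3 resistant SQ20B arrays, and limma's difference was 5.47 ± 0.10 (adjusted p = 2.93e-13). OASL, an OAS-like antiviral protein, was also higher, by 1.78 ± 0.12. In sensitive SQ20B EPSTI1 stood at 4.40, 4.39 and 4.52, so that both SQ20B states were low.

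The promoters of this list carry the letters that interferon-activated factors are known to bind. The core of the interferon-stimulated response element, GAAA followed by any 2 bases and GAAA again, was searched on both strands, with overlapping matches counted, in RefSeq windows (GRCh38.p14) that run 250 bases before to 50 bases after each gene start. It was present in 30 of 45 windows of the list (66.7%), which belong to 25 of the 33 members with a window, in 438 of 14902 windows of tested genes (2.94%) and in 1255 of all 35116 windows (3.57%). A match describes the letters only. The 6 stretches below show the match, in capitals, for members that moved in different ways, each 50 bases on the strand of its gene, 5′ to 3′. In HERC5 the match lies on the other strand, so its reverse complement is in capitals.
EPSTI1 (chr13:42992262-42992311, minus strand): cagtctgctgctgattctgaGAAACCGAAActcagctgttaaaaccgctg
HERC5 (chr4:88457025-88457074, plus strand): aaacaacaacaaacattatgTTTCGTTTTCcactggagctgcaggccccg
BST2 (chr19:17405725-17405774, minus strand): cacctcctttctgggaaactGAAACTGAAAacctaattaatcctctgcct
IFI44L (chr1:78620355-78620404, plus strand): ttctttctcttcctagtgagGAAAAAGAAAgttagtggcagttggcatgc
SAMD9 (chr7:93118086-93118135, minus strand): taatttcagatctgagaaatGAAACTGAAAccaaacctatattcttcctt
IFITM1 (chr11:313980-314029, plus strand): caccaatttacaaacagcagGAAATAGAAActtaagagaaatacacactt
HERC5, a ligase for the ubiquitin-like protein ISG15, and SAMD9, an antiviral factor, were chosen for this display after their values were seen. HERC5 differed by 1.11 in the resistant and by 5.0 in the sensitive cells, and SAMD9 by -1.50 in the resistant and by 1.12 in the sensitive cells. Members with a match thus lay on both sides of 0 in the resistant cells.

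The machinery that carries interferon signals was uneven as well. Of 21 tested components 12 were higher and 6 lower in resistant FaDu, with a median of 0.37. JAK2, a kinase of cytokine receptors, stood at 7.51, 7.57 and 7.50 in resistant FaDu, against 4.33, 4.50 and 4.43 in resistant SQ20B, where it was not detected, and was at least 6.81-fold higher (adjusted p = 2.12e-10, limma). IFNGR2, a chain of the interferon-gamma receptor, was higher by 2.12 ± 0.11. IRF7, a factor that amplifies the interferon response, stood at 9.58, 9.50 and 9.57 in resistant FaDu, against 11.35, 11.26 and 11.31 in resistant SQ20B, and did not differ by the test in the sensitive cells, at 0.03. IRF3, a factor activated by foreign nucleic acid, differed by -1.01 ± 0.10 in the resistant and -0.98 in the sensitive cells. Among 19 tested HLA class I and peptide loading genes 8 were higher and 4 lower, with a median of 0.11, not more often called than the 64.0% over all genes. PSME1 and PSME2, subunits of the proteasome activator PA28, were higher by 1.36 ± 0.08 and 1.45 ± 0.10, and TAP1, which moves peptides into the endoplasmic reticulum, was lower at -0.84 ± 0.09. HLA-G, in a family of near-identical genes, was lower at -0.65 ± 0.20, a call lost without FaDu resistant replicate 1 (adjusted p = 0.0597), without SQ20B resistant replicate 3 (0.0513) and in the authors' processed values (0.0558). Of 10 class II genes and regulators 8 were higher, such as CTSS, a protease of class II loading, at least 1.9-fold, and HLA-DMA, with 1.34 ± 0.16, while HLA-DOB was lower with -1.98 ± 0.15.

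NF-kB target cytokines and chemokines were mostly higher in resistant FaDu. Of 24 tested, 16 were higher and 2 lower, with a median of 0.61, beside 10 higher, 4 lower and a median of 0.11 in the sensitive cells, and the change was called upwards in 15 and downwards in 1. CXCL8 and CXCL1, given above, led the list, with changes of 3.19 (adjusted p = 7.4e-09) and 3.70 (adjusted p = 3.16e-07, limma). The 2 members lower in resistant FaDu were IL6 and PTGS2. IL6, a cytokine that acts through IL6ST and STAT3, stood at 7.55, 7.76 and 7.50 in resistant FaDu, against 8.61, 8.51 and 8.51 in resistant SQ20B. The difference was -0.94 ± 0.14 (adjusted p = 8.62e-05, limma), and the sensitive difference was -0.68. PTGS2, cyclooxygenase-2, stood at 6.23, 5.47 and 6.02 in resistant FaDu, against 6.93, 7.30 and 7.44 in resistant SQ20B, and was at least 2.34-fold higher in sensitive FaDu.

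The interleukin-1 cytokines lay close together in the resistant states. IL1A stood at 9.83, 9.51 and 9.52 in resistant FaDu, against 10.12, 10.34 and 9.94 in resistant SQ20B, and at 9.60, 9.90 and 9.70 in sensitive FaDu, against 6.88, 6.77 and 7.15 in sensitive SQ20B. Only the sensitive SQ20B arrays were low. The resistant difference was -0.51 ± 0.14 (adjusted p = 0.00587, limma), the sensitive one 2.81 and the change -3.32 (adjusted p = 9.03e-08). IL1B followed, with -0.38 ± 0.11 in the resistant and 2.27 in the sensitive cells and a change of -2.65 (adjusted p = 6.81e-08, limma). Of 13 tested members of the family 5 were higher and 5 lower in resistant FaDu, with a median of -0.21 that became 0.0040 without SQ20B resistant replicate 1. IRAK2, a kinase below the IL-1 receptor, stood at 7.73, 7.77 and 7.99 in resistant FaDu, against 5.36, 5.04 and 5.44 in resistant SQ20B, a difference of 2.55 ± 0.16. IRAK3, which restrains that signal, was higher by 1.70 ± 0.18, and IL1RAP, the accessory chain of the receptor, was lower with -0.69 ± 0.13.

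**Figure D3:**
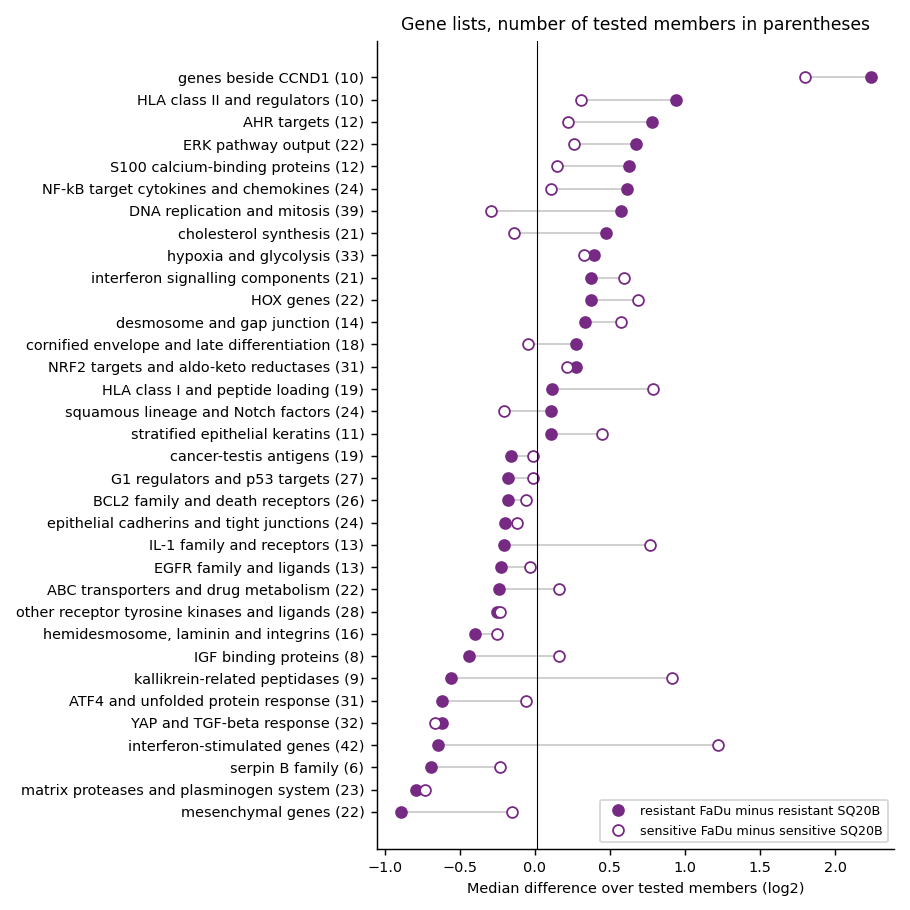
Median difference between FaDu and SQ20B over the tested members of 34 gene lists (log2), filled for the resistant and open for the sensitive cells, with the number of tested members beside each name and a vertical line at the resistant median of all genes, 0.02. The open and filled points lie far apart for interferon-stimulated genes, at 1.22 and -0.64, and for kallikreins, at 0.92 and -0.56.

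Most cholesterol synthesis genes were higher and most unfolded protein response genes lower in resistant FaDu. The cholesterol genes were called about as often as the 64.0% over all genes. Over all genes 32.8% were higher and 31.2% lower, and the change was called upwards in 17.8% and downwards in 17.9%. Of 21 tested cholesterol genes 12 were higher and 2 lower in resistant FaDu, with a median of 0.47, beside 3 higher and 10 lower in sensitive FaDu, and the change was called upwards in 15 and downwards in 0. SQLE, squalene epoxidase, stood at 11.86, 12.24 and 12.03 in resistant FaDu, against 10.07, 10.30 and 10.01 in resistant SQ20B, a difference of 1.91 ± 0.11 (adjusted p = 1.11e-08, limma). INSIG1, a sterol sensor, stood at 11.26, 11.18 and 11.06 in resistant FaDu, against 9.35, 9.42 and 9.44 in resistant SQ20B, and the sensitive lines did not differ by the test, at -0.03. NSDHL and SC5D, later enzymes of the pathway, were lower, with -0.62 ± 0.08 and -0.42 ± 0.11. Of 31 tested ATF4 and unfolded protein response genes 6 were higher and 19 lower in resistant FaDu, with a median of -0.62, and the change was called downwards in 21. DDIT3, the stress factor CHOP, stood at 7.22, 6.97 and 7.19 in resistant FaDu, against 10.38, 10.28 and 10.13 in resistant SQ20B, a difference of -3.14 ± 0.10 beside -1.20 in the sensitive cells. CTH, which makes cysteine, was lower with -3.35 ± 0.13. CRELD2 and NUPR1 went against the list, higher by 2.11 ± 0.10 and 1.55 ± 0.19. Among 33 tested hypoxia and glycolysis genes 17 were higher and 6 lower, with a median of 0.39 beside 0.32 in the sensitive cells. ALDOC, an aldolase, was higher by 2.91 ± 0.10 and CA2, a carbonic anhydrase, by 2.10 ± 0.15, while the glucose transporter SLC2A3 was lower with -1.86 ± 0.19 and hexokinase 2, HK2, with -1.55 ± 0.12.

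Keratins and differentiation genes differed in both directions. Of 11 tested stratified epithelial keratins 4 were higher and 4 lower in resistant FaDu, each by at least 2-fold. KRT4, a keratin of wet mucosa, stood at 8.14, 8.14 and 8.13 in resistant FaDu and was not detected in resistant SQ20B, at 4.37, 4.41 and 4.44, a difference of at least 10.4-fold (adjusted p = 1.27e-12, limma). KRT13, its usual partner, went the opposite way, with 8.14, 8.01 and 8.18 in resistant FaDu, against 10.73, 10.45 and 10.59 in resistant SQ20B. KRT15, a basal keratin, was higher by 3.10 ± 0.13. Among simple epithelial keratins KRT8 was higher by 1.02 ± 0.09 and KRT7 lower with -0.74 ± 0.13. Of 18 cornified envelope and late differentiation genes 8 were higher and 4 lower, about as often called as the 64.0% over all genes. FLG, filaggrin, stood at 4.39, 4.46 and 4.33 in resistant FaDu, detected on no array, against 7.79, 7.89 and 7.88 in resistant SQ20B, and was at least 8.22-fold lower (adjusted p = 1.36e-11, limma). SCEL, sciellin, was at least 4.68-fold lower, whereas TGM1, the transglutaminase of the cornified envelope, was higher by 1.83 ± 0.15 and ABCA12, a lipid transporter of keratinocytes, by 1.40 ± 0.10.

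Kallikrein-related peptidases, serine proteases that shed the skin surface, were lower in resistant FaDu in 6 of 9 tested members and higher in 1, whereas in sensitive FaDu 5 were higher and 1 lower. The change was called downwards in 8 of the 9. KLK5 stood at 9.97, 9.93 and 9.93 in resistant FaDu, against 12.36, 12.42 and 12.66 in resistant SQ20B, a difference of -2.54 ± 0.10 (adjusted p = 2.8e-10, limma), beside 0.13 in the sensitive cells. KLK7 was at least 3.65-fold lower, and KLK11 was at least 2.77-fold higher. Of 6 tested serpins of the B family 0 were higher and 4 lower, SERPINB7 with -2.28 ± 0.16. They were called about as often as the 64.0% over all genes. Desmosome and gap junction genes were higher in 7 and lower in 5 of 14. PKP1, a desmosomal plaque protein, stood at 7.23, 7.31 and 7.06 in resistant FaDu, against 4.38, 4.32 and 4.47 in resistant SQ20B, undetected there, and was at least 5.41-fold higher. GJB2, connexin 26, was higher by 2.07 ± 0.17.

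Epithelial factors and calcium-binding S100 proteins differed in both directions. S100P stood at 8.93, 8.96 and 8.99 in resistant FaDu, against 4.64, 4.85 and 4.53 in resistant SQ20B, a difference of 4.29 ± 0.12 (adjusted p = 1.72e-11, limma) beside 0.32 in the sensitive cells. S100A9, a subunit of calprotectin, stood at 9.05, 9.07 and 9.14 in resistant FaDu, against 5.56, 5.60 and 5.63 in resistant SQ20B. Of 12 tested S100 genes 6 were higher and 3 lower. Among 24 epithelial cadherin and tight junction genes 6 were higher and 9 lower, not more often called than the 64.0% over all genes. ELF3, an epithelial transcription factor, was higher by 2.22 ± 0.10 and ST14, matriptase, by 1.66 ± 0.09. The claudins CLDN23 and CLDN7, proteins of tight junctions, were lower, with -0.87 ± 0.10 and -0.87 ± 0.10. Of 24 squamous lineage and Notch factors 11 were higher and 9 lower. PAX9, a factor of oral and oesophageal epithelium, was at least 8.19-fold higher in resistant FaDu and at least 10.1-fold higher in sensitive FaDu. NOTCH3, a receptor, stood at 8.68, 8.62 and 8.66 in resistant FaDu, against 5.38, 5.35 and 5.47 in resistant SQ20B, while the ligand JAG1 was lower with -1.93 ± 0.11 and the Notch target HEY1 with -1.44 ± 0.13. SOX2 stood at 6.17, 6.45 and 6.27 in resistant FaDu and was undetected in resistant SQ20B, at 4.43, 4.36 and 4.39, which makes it at least 2.89-fold higher, and it was lower in sensitive FaDu, with a difference of -1.90. A dim SOX2 probe gave 0.27 in the resistant cells, which was not called.

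Mesenchymal genes were lower in resistant FaDu in 13 of 22 tested and higher in 3, with a median of -0.90 beside -0.16 in the sensitive cells. LUM, the matrix proteoglycan lumican, stood at 4.75, 4.40 and 4.57 in resistant FaDu, against 9.39, 9.62 and 9.49 in resistant SQ20B, at 4.47, 4.37 and 4.49 in sensitive FaDu and at 4.34, 4.37 and 4.21 in sensitive SQ20B. Resistant SQ20B alone was high, LUM was at least 25.8-fold lower in resistant FaDu (adjusted p = 1.16e-12, limma), and the change of the difference was -5.06 (adjusted p = 3.1e-10). COL5A2, a fibrillar collagen chain, stood at 5.52, 5.67 and 5.39 in resistant FaDu, against 9.91, 9.94 and 10.05 in resistant SQ20B, a difference of -4.44 ± 0.13. The higher members were FOXC2, at 1.14 ± 0.18, TWIST2, which was not detected in resistant SQ20B and at least 1.28-fold higher (adjusted p = 0.0165, limma), and VIM, vimentin, named to complete this count, at 0.52. The TWIST2 call was lost without FaDu resistant replicate 2 (adjusted p = 0.0536), without FaDu resistant replicate 3 (0.0796), without SQ20B resistant replicate 3 (0.0666) and in the authors' processed values (0.108). Of 10 fibroblast and muscle markers with a probe, 1 was detected on all 3 and 6 on none of the resistant FaDu arrays, and 3 on all 3 and 4 on none of the resistant SQ20B arrays. Their level, summed on the linear scale over all probes of these markers, detected or not, was 894 to 955 in resistant FaDu. In resistant SQ20B this sum was 2858 to 2866, and LUM and ACTA2 are in both lists. Their part in the result was not tested.

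Markers of other cell types were in part detected. Of 14 leukocyte markers with a probe 8 were undetected on all resistant FaDu arrays and 6 on all resistant SQ20B arrays. On all 3 arrays, 3 leukocyte markers were detected in resistant FaDu and 6 in resistant SQ20B. Of 10 endothelial markers 6 were undetected in resistant FaDu and 7 in resistant SQ20B, and of 9 melanocyte and neural markers 5 in each. On all 3 arrays, 2 endothelial and 3 melanocyte and neural markers were detected in each resistant group. CD14 stood at 8.46, 8.48 and 8.52 in resistant FaDu, against 6.21, 6.10 and 6.05 in resistant SQ20B, and a dimmer CD14 probe gave 0.63. CSF1R was at least 1.31-fold lower in resistant FaDu, and VWF, an endothelial marker, differed by -1.24 ± 0.12.

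Genes of matrix turnover were mostly lower in resistant FaDu. Of 23 tested proteases, inhibitors and plasminogen genes 5 were higher and 15 lower in resistant FaDu, with a median of -0.79 beside -0.73 in the sensitive cells. TIMP3, an inhibitor of metalloproteinases, stood at 5.34, 5.80 and 5.23 in resistant FaDu, against 10.54, 10.66 and 10.49 in resistant SQ20B, a difference of -5.11 ± 0.13 (adjusted p = 4.98e-12, limma). MMP28, an epithelial metalloproteinase, was lower with -3.94 ± 0.15. PLAU, urokinase, was higher by 1.76 ± 0.08, and MMP10, stromelysin-2, was at least 3.4-fold higher. Hemidesmosome, laminin and integrin genes were higher in 0 and lower in 10 of 16, not more often called than the 64.0% over all genes. ITGA2, a collagen receptor chain, was lower with -2.02 ± 0.10 and the tetraspanin CD151 with -1.30 ± 0.09.

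Genes of drug handling and redox defence were led by a few large differences. Of 31 tested NRF2 targets and aldo-keto reductases 16 were higher and 7 lower in resistant FaDu, with a median of 0.27 beside 0.22 in the sensitive cells. GSTM3, a glutathione transferase, was at least 4.82-fold lower in resistant FaDu, where no array detected it. Of 12 AHR targets, genes of the aryl hydrocarbon receptor, 8 were higher and 2 lower. ALDH3A1, an aldehyde dehydrogenase, stood at 12.60, 12.52 and 12.55 in resistant FaDu, against 8.67, 8.24 and 8.43 in resistant SQ20B, a difference of 4.11 ± 0.11 (adjusted p = 9.07e-12, limma). LRAT, which stores retinol as esters, was at least 2.69-fold higher. The amino acid transporter SLC7A5 was lower with -1.41 ± 0.09, and AHR with -0.42 ± 0.14, a call lost without FaDu resistant replicate 3 (adjusted p = 0.096) and without SQ20B resistant replicate 2 (0.0813). The motif GCGTG, the AHR core, searched the same way, was in 7 of 13 windows of the list (53.8%), 47.3% of windows of tested genes and 36.5% of all windows. Of 22 ABC transporter and drug metabolism genes 5 were higher and 10 lower. ABCC4, a drug efflux pump, stood at 5.60, 5.69 and 5.57 in resistant FaDu, against 7.59, 7.93 and 7.85 in resistant SQ20B, a difference of -2.17 ± 0.11. GSTP1, another glutathione transferase, was higher by 1.36 ± 0.10 and CYP26B1, which degrades retinoic acid, by 1.10 ± 0.11. The sensitive difference was -2.27 for ABCC4, 3.46 for ALDH3A1, 1.13 for GSTP1 and 3.75 for CYP26B1. The change was not called for ABCC4 (adjusted p = 0.675) and GSTP1 (0.225, limma), and was called for ALDH3A1 and CYP26B1. GSTM3 was undetected in both sensitive groups.

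Cell death genes and growth factor binding proteins differed in both directions. Of 26 BCL2 family and death receptor genes 5 were higher and 11 lower in resistant FaDu, with a median of -0.18. They were not called more often than the 64.0% over all genes. BCL2L1, the survival protein BCL-XL, was lower with -1.29 ± 0.08 at its brightest probe and -0.17, not called, at a dimmer one. TNFRSF10A, a receptor of TRAIL, was at least 1.69-fold lower, and TNFSF10, TRAIL itself, was higher by 1.09 ± 0.16. BIK, a promoter of apoptosis, was higher by 1.27 ± 0.09. Of 8 IGF binding proteins and relatives 3 were higher and 4 lower. IGFBP5 stood at 11.10, 10.97 and 11.07 in resistant FaDu and 8.29, 8.67 and 8.63 in resistant SQ20B, with a difference of 2.51 ± 0.17. The sensitive arrays were far below both, at 4.63, 5.16 and 5.40 in FaDu and 4.68, 4.56 and 4.35 in SQ20B. IGFBP4 was higher by 2.64 ± 0.16, and IGFBP7 and IGFBP6 were lower with -2.01 ± 0.10 and -1.35 ± 0.10.

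HOX genes and cancer-testis antigens were not called more often than the 64.0% over all genes, and single members differed widely. Of 22 tested HOX genes, which set position along the body, 10 were higher and 2 lower in resistant FaDu, with a median of 0.37 beside 0.69 in the sensitive cells. HOXD11 stood at 8.16, 8.13 and 8.43 in resistant FaDu, against 5.04, 4.68 and 4.68 in resistant SQ20B, a difference of 3.44 ± 0.13 beside 3.70 in the sensitive cells, with 1 of 3 SQ20B arrays detecting it in each state. HOXB2 was at least 4.53-fold higher. The 2 lower members were HOXC13, at -1.25 ± 0.08, and HOXB7, at -0.24 ± 0.08. HOXB7 was not called without SQ20B resistant replicate 1 (adjusted p = 0.064) or SQ20B resistant replicate 3 (0.0559). Of 19 cancer-testis antigens, germ cell proteins that tumours may express, 3 were higher and 9 lower. MAGEA4 stood at 11.07, 11.10 and 11.19 in resistant FaDu, against 7.48, 7.50 and 7.34 in resistant SQ20B, and PRAME was higher by 2.62 ± 0.11. MAGEA12 was at least 17-fold lower and MAGEA6 differed by -4.14 ± 0.28, but these genes are near-identical and a dim MAGEA6 probe gave -0.07.

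Some genes separated the resistant states and not the parental ones. RARRES1, a membrane protein induced by retinoic acid, stood at 9.95, 10.00 and 10.00 in resistant FaDu, against 6.36, 6.29 and 6.35 in resistant SQ20B, and at 4.89, 5.04 and 4.65 in sensitive FaDu, against 4.80, 4.67 and 4.50 in sensitive SQ20B. Both sensitive groups were low and overlapped, both resistant groups lay above them, and resistant FaDu was highest. The resistant difference was 3.65 ± 0.11 (adjusted p = 2.16e-11, limma) and the change 3.45 (adjusted p = 7.4e-09). SPTSSB, a subunit of the enzyme that starts sphingolipid synthesis, differed by 3.38 ± 0.14 with a change of 3.13, and BPIFB1, a secreted airway protein, by 2.46 ± 0.11 with a change of 2.60. UBD, a ubiquitin-like modifier, and GABRP, a GABA receptor subunit, were at least 6.9-fold and 4.95-fold higher in resistant FaDu, with changes of 2.81 and 2.89. Each of these 4 changes was called, with adjusted p values of 1.88e-07, 8.12e-08, 4.18e-06 and 2.64e-08 (limma). The calls of this and the next paragraph, and the lack of one between the parental cells, were fixed by the choice of genes. Neither sensitive line reached the resistant FaDu level of any gene named so far in this paragraph. That did not hold for every gene the same choice gave. ANKRD22 had a mean of 7.91 in resistant FaDu and 5.60 in resistant SQ20B, against 8.37 in sensitive FaDu and 8.51 in sensitive SQ20B.

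In the other direction resistant SQ20B was the group that stood out. EPHA4, an ephrin receptor, stood at 4.78, 5.22 and 4.65 in resistant FaDu, against 8.49, 8.57 and 8.64 in resistant SQ20B, and at 5.37, 5.51 and 5.49 in sensitive FaDu, against 5.45, 5.74 and 5.95 in sensitive SQ20B. Its difference was -3.68 ± 0.15 and the change -3.42 (adjusted p = 1.34e-07, limma). BDNF, a neurotrophin, differed by -3.56 ± 0.11, with a change of -3.62 (adjusted p = 7.08e-09), although a dim BDNF probe gave 0.10. NRCAM, a neural cell adhesion molecule, was at least 8.47-fold lower in resistant FaDu, with a change of -3.59 (adjusted p = 2.23e-08, limma). VTN, vitronectin, was at least 5.75-fold lower, with a change of -3.02 (adjusted p = 1.36e-09). THBD, thrombomodulin, stood at 4.50, 4.81 and 4.61 in resistant FaDu, against 8.03, 8.28 and 8.22 in resistant SQ20B, with a change of -3.35 (adjusted p = 1.96e-08, limma).

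In 558 genes the lines were called in opposite directions in the 2 states, and those named here were chosen by these calls. DHRS2, a short-chain dehydrogenase, stood at 7.31, 7.42 and 6.86 in resistant FaDu, against 12.29, 12.09 and 12.12 in resistant SQ20B, and at 7.35, 7.86 and 7.16 in sensitive FaDu, against 6.52, 6.48 and 6.49 in sensitive SQ20B. Resistant SQ20B alone was high, and the difference was -4.97 ± 0.17 in the resistant and 0.96 in the sensitive cells, a change of -5.93 (adjusted p = 4.41e-09, limma). VGLL1, a cofactor of TEAD factors, exchanged its order: 9.52, 9.44 and 9.51 in resistant FaDu, against 6.87, 6.81 and 6.51 in resistant SQ20B, and 5.96, 5.85 and 6.07 in sensitive FaDu, against 8.33, 8.51 and 8.63 in sensitive SQ20B. Its change was 5.30 (adjusted p = 3.22e-10, limma). SIRPA, the receptor of CD47, differed by -3.01 ± 0.10 in the resistant cells and was at least 2.68-fold higher in sensitive FaDu. ACKR3, a scavenger receptor for CXCL12, differed by -1.70 ± 0.10 in the resistant and 2.87 in the sensitive cells. CKB, creatine kinase B, differed by 1.06 ± 0.13 in the resistant and -3.49 in the sensitive cells, where 1 of 3 FaDu arrays detected it. The changes were -4.69, -4.57 and 4.55, with adjusted p values of 3.89e-10, 3.22e-10 and 4.49e-09 (limma).

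**Figure D4:**
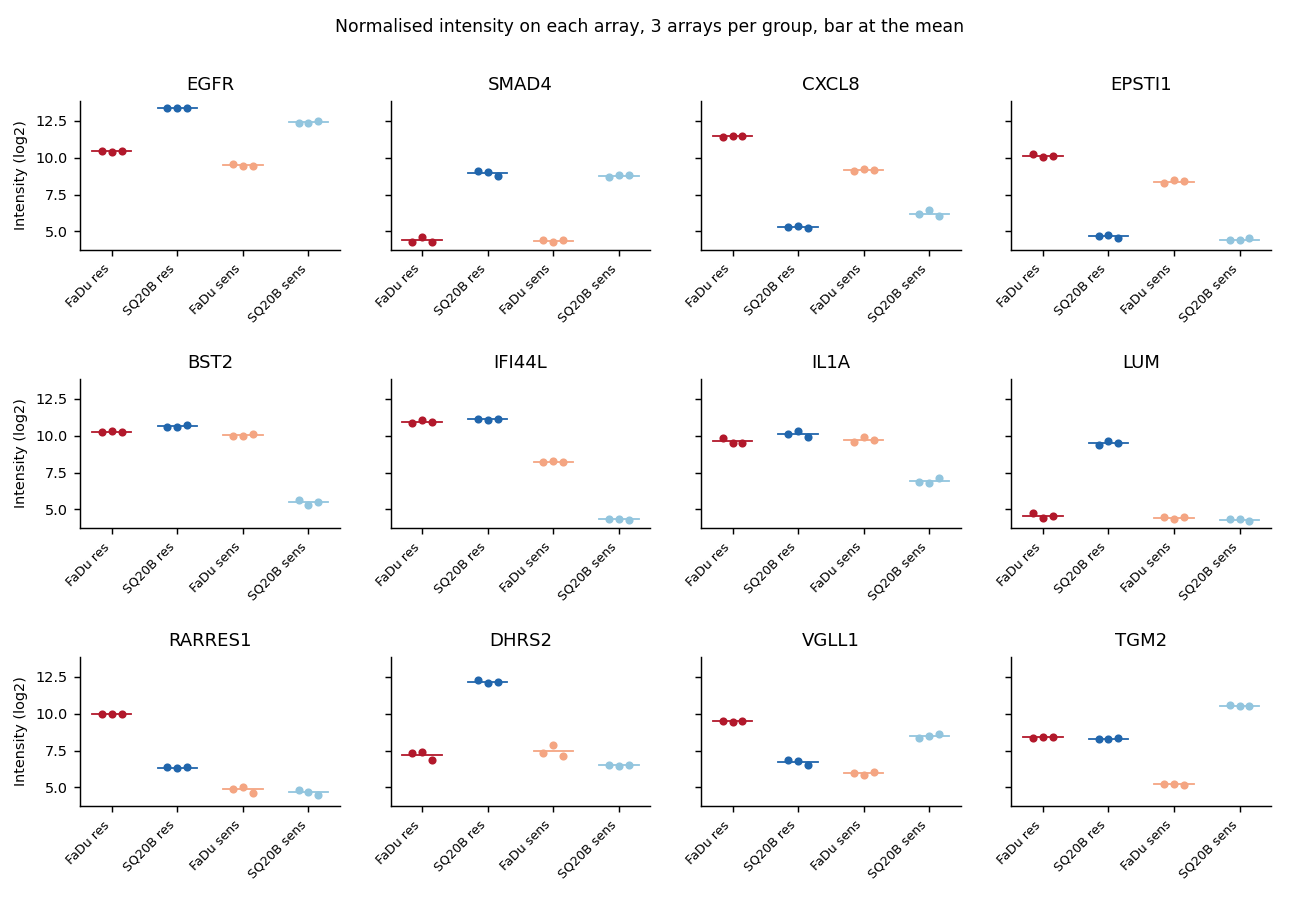
Log2 normalised intensity of 12 genes on each array, with 3 arrays for each of resistant FaDu, resistant SQ20B, sensitive FaDu and sensitive SQ20B, and a bar at the group mean. EGFR and SMAD4 separate the lines in both states, BST2 and IL1A are low in sensitive SQ20B alone, LUM and DHRS2 are high in resistant SQ20B alone, and the resistant groups coincide for TGM2.

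Other genes separated the parental cells and no longer passed the test between the resistant ones, and those named here were chosen by these calls. TGM2, tissue transglutaminase, stood at 8.35, 8.41 and 8.43 in resistant FaDu, against 8.26, 8.29 and 8.37 in resistant SQ20B, and at 5.25, 5.23 and 5.16 in sensitive FaDu, against 10.58, 10.51 and 10.53 in sensitive SQ20B. The groups were far apart in the sensitive cells and close in the resistant cells, with differences of -5.33 and 0.09 ± 0.07 (adjusted p = 0.312 for the second, limma) and a change of 5.42 (adjusted p = 1.57e-11). NT5E, the ectonucleotidase CD73, stood at 9.70, 9.77 and 9.67 in resistant FaDu, against 9.60, 9.59 and 9.56 in resistant SQ20B, and differed by -3.87 in the sensitive cells, a change of 3.99 (adjusted p = 2.71e-10, limma). KRT16, a keratin of stressed epithelium with near-identical relatives, differed by 0.11 ± 0.13 in the resistant and 4.07 in the sensitive cells, a change of -3.95 (adjusted p = 1.03e-08). CLIC3, a chloride channel protein, changed by 3.31, UBE2E2, a ubiquitin-conjugating enzyme, by -3.63 and CYP4F11, a fatty acid hydroxylase, by -2.36. Their adjusted p values were 1.79e-08, 1.85e-08 and 1.8e-06 (limma). CYP4F11 was called between the resistant groups without SQ20B resistant replicate 2 (adjusted p = 0.0339), and UBE2E2 with median scaling (0.0446), without background correction (0.0175) and with an offset of 50 (0.0274).

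Runs of neighbouring genes were called in 1 direction, mostly in both states. Beside CCND1 on the long arm of chromosome 11, a stretch that is often gained in squamous carcinomas, 9 of 10 tested genes were higher and 1 lower in resistant FaDu, with a median of 2.24 beside 1.80 in the sensitive cells. TPCN2, a lysosomal ion channel, stood at 10.09, 10.18 and 10.20 in resistant FaDu, against 6.51, 6.25 and 6.31 in resistant SQ20B. ANO1, a chloride channel, stood at 10.00, 9.73 and 9.80 in resistant FaDu, against 6.21, 6.23 and 6.32 in resistant SQ20B. MYEOV was the lower one, with -2.05 ± 0.10. The longest run of adjacent tested genes called higher in resistant FaDu held 24 genes, HGS to FASN in RefSeq order, with a median of 1.24, and 23 of them were called alike in the sensitive cells. It holds FASN, fatty acid synthase, with 1.76 ± 0.09, PYCR1, an enzyme of proline synthesis, with 2.97 ± 0.09, and P4HB, protein disulphide isomerase, with 1.10 ± 0.10. The next runs held 15 genes, DCAF11 to RABGGTA with PSME1, PSME2, TGM1 and IRF9, the last with 0.37 ± 0.09, and 14 genes, TEX19 to RPL23AP87.

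The longest runs called lower in resistant FaDu held 13 genes each, GPX8 to PLK2 with a median of -1.70 and TGFBR1 to RNF20 with -0.88, and 12 genes, SF1 to VPS51, with -1.46. IL6ST, the receptor chain gp130 that IL-6 signals through, stood at 8.85, 8.67 and 8.66 in resistant FaDu, against 11.33, 11.31 and 11.20 in resistant SQ20B, a difference of -2.55 ± 0.10 (adjusted p = 2.69e-10, limma). PLK2, a polo-like kinase of the same run, was lower with -1.75 ± 0.13. In the sensitive cells 12 of 13, 10 of 13 and 9 of 12 genes of these runs were called alike. Runs were chosen for their calls and are given as a description, and whether copy number differs there was not tested.

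**Figure D5:**
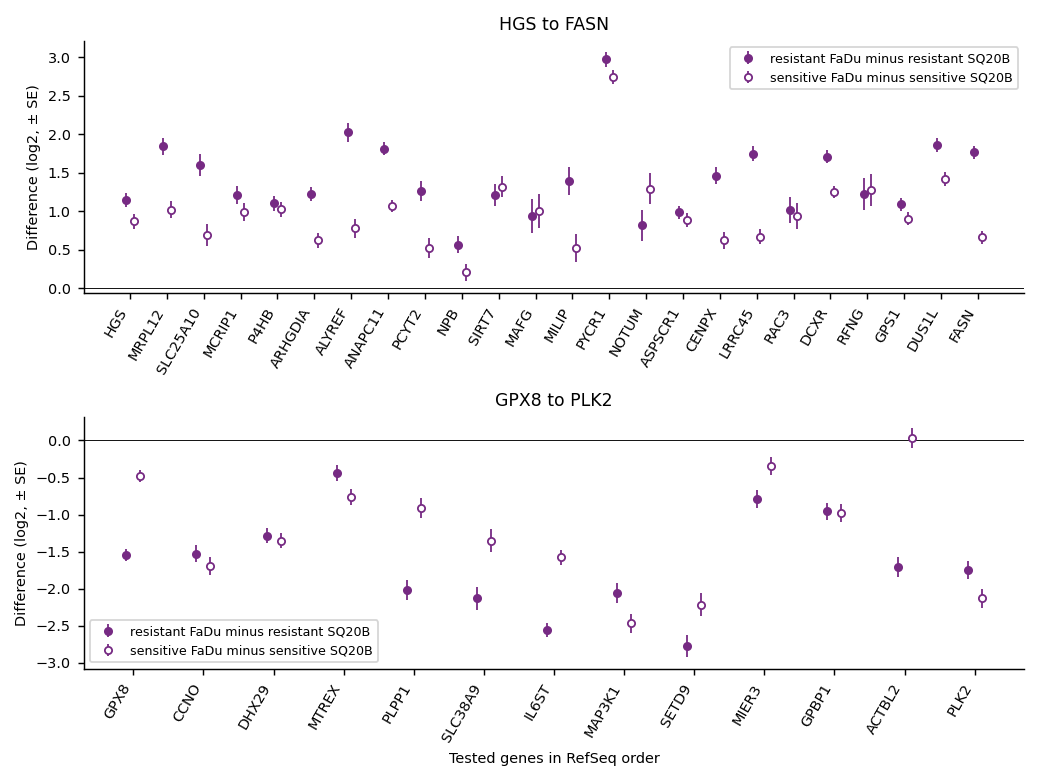
Difference between FaDu and SQ20B (log2, ± SE, 3 arrays per group) for the genes of the longest run called higher in resistant FaDu (top, 24 genes) and of a run called lower (bottom, 13 genes), in RefSeq order. Filled points are the resistant and open points the sensitive cells, and the open points lie on the same side of 0 as the filled ones for all but ACTBL2.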

How the data were processed

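Per the labels' protocols, total RNA was amplified to biotin-labelled cRNA for Illumina arrays. The authors deposited mean bead intensity values per probe on a linear scale without normalisation, as the values show, and beside each a detection p-value, also deposited by the authors. Per the submitters' processing notes the software was GenomeStudio, with no version. Processed intensity values, deposited by the authors in a further table, served as an alternative, and how they were made is not stated there. The columns of the sensitive arrays name only the line and DMSO, and were matched to the sensitive samples because those of the resistant arrays carry a resistance label.

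Signals were corrected with neqc in limma 3.58.1 (R 4.3.3), which fits the background from the detection p-values, adds an offset of 16 and quantile-normalises the 12 arrays of both lines together. One limma fit (lmFit, eBayes) over the 4 groups left 8 residual degrees of freedom. Differences between lines were tested in the resistant cells, in the sensitive cells and as their change, each adjusted by Benjamini-Hochberg over 17424 probes. A gene is read at its brightest tested probe. The platform annotation gives 1 symbol for 30113 of 47231 probes and several for 8, and the 17110 probes it does not list stay unnamed. The fit was tested on simulated data. Same-numbered resistant arrays deviated from their group means with correlations of -0.08, 0.02 and 0.02. No pairing of the resistant arrays by number was seen, which these few values cannot exclude.

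The members and the gene lists were chosen with earlier results of these data known. Named genes were taken from several sets. These were the 15 largest non-overlapping called differences in each direction, and at most 2 called members for each list in each direction. Next came the 10 largest in each direction called in the resistant cells and as a change and not in the sensitive cells. Further sets were up to 8 called in opposite directions, and the 8 largest called only in the sensitive cells with a called change. The last were the genes of the 3 longest runs of neighbours in each direction, and a fixed set with EGFR, ERBB2, ERBB3, IL6, IL1A, IL1B, CCND1, SMAD4 and CDKN2A. Not every gene of these sets is described, and these rules do not fix which are. XIST and Y-linked genes are not named. Lists are described by counts and medians, with no set test. Alternatives changed the background correction, the scaling, the detection filter, the probe rule, the arrays in the fit and the use of a replicate block. Promoter sequences are from RefSeq (GRCh38.p14).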

Additional observations from a re-analysis of the deposited data

Results flagged for a closer look

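The difference between FaDu and SQ20B was another in the resistant than in the sensitive cells for 4624 of 12934 genes by the test of the change itself (limma). Of the 176 genes the report rests on, 126 passed that test, 60 upwards and 66 downwards, and the changes given in the report (resistant difference minus sensitive difference, log2) follow. Where a group was undetected, as named in the report, a change gives no fold.

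The changes were upwards for CXCL8 (3.19), CXCL1 (3.70), RARRES1 (3.45), SPTSSB (3.13), UBD (2.81), BPIFB1 (2.60), GABRP (2.89), CKB (4.55), VGLL1 (5.30), TGM2 (5.42), NT5E (3.99) and CLIC3 (3.31). Those of TGM2, NT5E and CLIC3 go with a resistant difference that was not called.

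The changes were downwards for the cytokines IL1A (-3.32) and IL1B (-2.65) and for the interferon-stimulated genes BST2 (-4.90) and IFI44L (-4.05). They were also downwards for LUM (-5.06), EPHA4 (-3.42), BDNF (-3.62), NRCAM (-3.59), VTN (-3.02), THBD (-3.35), DHRS2 (-5.93), SIRPA (-4.69) and ACKR3 (-4.57). The remaining ones were KRT16 (-3.95), CYP4F11 (-2.36), UBE2E2 (-3.63), MAOA (-3.77), NPPB (-4.91), KRT34 (-3.88) and IL20RB (-3.30).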

How the results depend on the processing

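A total of 21 alternatives were run, 12 that leave out 1 array and 9 others. For the resistant difference of the 176 genes the report rests on, 3662 of 3695 values kept their direction and their side of the threshold, 29 lost their call, 4 gained one and 0 changed direction, and 167 genes kept their call throughout. The exceptions were ERBB2, ERBB3, TGFBR1, HLA-G, TWIST2, AHR, HOXB7, CYP4F11 and UBE2E2. Genes called with at least a 2-fold difference numbered 2774 as reported, 1416 without background correction and 1794 with an offset of 50, which both shrink differences of dim probes by construction. Of 2142 list values 2 changed sign, the median of the IL-1 family, which lay between -0.2600 and 0.0040 when single arrays were left out (the highest without SQ20B resistant replicate 1), and that of other receptor tyrosine kinases, 0.0158 with no detection filter, and the cause was not tested.

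Leaving out single arrays gave 7741 to 8272 genes called between the resistant groups, 2774 to 2805 with at least a 2-fold difference, 7198 to 7779 between the sensitive groups, 4096 to 4389 for the change, and 10065 to 10845 probes between the resistant groups. With the replicate number as a block 8194 genes were called between the resistant groups, but no pairing of the resistant arrays by number was seen. The array position on a slide is not given in the files, so that block was not run. The arrays lack a dilution or spike-in series, so genes near the detection limit have bounds only, and differences of bright probes may be compressed.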
